A study of Homo sapiens with 6 samples.

Results

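N6-methyladenosine (m6A) is the commonest internal mark of messenger RNA. METTL3 is the catalytic subunit of the writer complex that places it, METTL14 and WTAP are partners of that complex, FTO and ALKBH5 remove the mark, and reader proteins of the YTHDF and IGF2BP families act on marked transcripts. Depending on the reader, a marked transcript can be decayed faster, stabilised or translated more, so a change in its abundance is only one of the outcomes that a METTL3 target can show. The transcripts described here are 10 genes that work in other cancers has named as m6A targets of METTL3, namely MYC, SOCS2, SNAI1, HDGF, AFF4, CREBBP, EP300, KLF4, SOX2 and SP1. They were taken by symbol, through the Ensembl identifier without its version, from the 60649 gene rows of the count table. All 10 were found, and all 10 passed the filter on low counts along with 22038 genes in all.

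The samples were 6 bulk RNA libraries of OVCAR5, an established ovarian cancer cell line with epithelial features. In 3 of them the cells carried a METTL3-overexpression construct delivered by lentivirus and were kept as a stable line after puromycin selection. The other 3 were control libraries, which the protocol describes as lines made with an empty-vector lentivirus and the series text calls parental. No drug treatment is named for any of the 6 libraries, whether a line came from 1 clone is not stated, and neither is whether the replicates were separate cultures, so the p-values measure only the spread between these samples. In bulk RNA, more transcript per cell and more cells that hold the transcript cannot be told apart.

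Total counts ran from 96633925 to 125463386 per library. METTL3 was measured at 152, 165 and 175 CPM (counts scaled to the library total) in METTL3 replicates 1, 2 and 3, and its vector values were 80.6, 68.6 and 71.6 CPM. The groups did not overlap, the log2 fold change was 1.16 (SE 0.117), and the quasi-likelihood test of edgeR, Benjamini-Hochberg adjusted over all genes tested, gave an adjusted p = 0.072. Reads of the construct and of the resident gene cannot be told apart in these counts. The replicate 1 libraries of both groups stood apart from the other libraries, with first principal component scores of -54.8 and -41.4 against 6.57 to 40.7, and 9.06% of genes passed the same test between replicate 1 and the rest. With all 6 libraries edgeR called 0 genes at an adjusted p of 0.05 (0%), 8.3% had an unadjusted p under that value, and DESeq2 called 1.27%. In replicates 2 and 3 of each group edgeR called 15.2% of genes, 6.66% higher and 8.59% lower with METTL3, and METTL3 itself had a log2 fold change of 1.28 (edgeR adjusted p = 1.59e-08). The 10 transcripts are therefore given both for all 6 libraries and for replicates 2 and 3. The second comparison leaves out the libraries that stood apart, so its p-values do not cover the spread that they add. A rise or fall called there is a statement about those libraries only. Of the other genes named below, METTL3 set apart, edgeR called none with all 6 libraries. For those called in replicates 2 and 3, a replicate 1 pair of the other sign is given beside the gene. For genes named without a call this is not always done. All 6 epithelial markers were above 1 CPM in every library, against 1 of 5 fibroblast, 2 of 5 leukocyte and 1 of 4 endothelial markers.

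The writer complex favours an adenosine in a short sequence context of which GGACT, with the methylated A in the middle, is a strong form. Across the principal transcripts of the listed genes (GENCODE 44, GRCh38), GGACT on the sense strand occurred from 2 times in HDGF to 10 times in EP300. Per kilobase the range ran from 0.521 in SP1 to 2.35 in SNAI1. The background was high, since 91.4% of the 14873 protein-coding transcripts tested held at least 1 GGACT and their median density was 0.943 per kilobase. Many mapped m6A sites lie near the stop codon, so the GGACT closest to it is shown for the 6 transcripts to which the comparisons below return most. Each line gives 21 bases of the reference genome, hg38, 5′ to 3′ on the transcript strand, with the GGACT in capitals. No measurement of methylation was used here, and a match is not a methylated site.
CREBBP, chr16:3727879-3727899, minus strand, coding part of exon 31: cccaccccGGACTcgcagtca
EP300, chr22:41178883-41178903, plus strand, coding part of exon 31: cggacctgGGACTcagcaccg
KLF4, chr9:107485486-107485506, minus strand, 3′UTR in exon 5: atattcctGGACTtacaaaat
SP1, chr12:53412368-53412388, plus strand, 3′UTR in exon 6: gagtatttGGACTttggtact
SOX2, chr3:181713548-181713568, plus strand, 3′UTR in exon 1: gagatcctGGACTtctttttg
SNAI1, chr20:49988189-49988209, plus strand, 3′UTR in exon 3: gccccacaGGACTttgatgaa
The distance from the last coding base was 141 bases for SNAI1, 242 for SOX2, 253 for KLF4 and 1136 for SP1, all downstream, while the motifs of EP300 and CREBBP lay inside the coding part, at -65 and -173 bases. SNAI1 had the densest GGACT of the 10, at percentile 95 of all protein-coding transcripts tested, and SP1 the sparsest, at percentile 22.1.

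Of the 10 transcripts, 8 had a positive and 2 a negative log2 fold change with METTL3, where 10415 of 22038 genes tested were positive. The median of the 10 was 0.21 against -0.018 over all genes tested. None passed the adjusted threshold of edgeR or of DESeq2 with all 6 libraries. Without adjustment CREBBP, EP300, KLF4 and SOX2 had a p under 0.05, all higher, where 4.4% of all genes were higher and 3.91% lower at that level. The 3 METTL3 libraries lay above all 3 vector libraries for MYC, CREBBP, EP300, KLF4 and SP1, and groups apart in this way were found for 17.4% of all genes, 8.47% higher and 8.93% lower with METTL3. Between libraries of the same replicate number, MYC, CREBBP, EP300, KLF4, SOX2 and SP1 were higher with METTL3 in all 3 pairs, and 0 of the 10 were lower in all 3. Of all genes, 39.6% kept 1 sign in the 3 pairs, a share that holds those higher and those lower together. In replicates 2 and 3, CREBBP, KLF4 and SP1 rose, where 6.66% of all genes did, and SNAI1 fell, where 8.59% did.

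**Figure D1:**
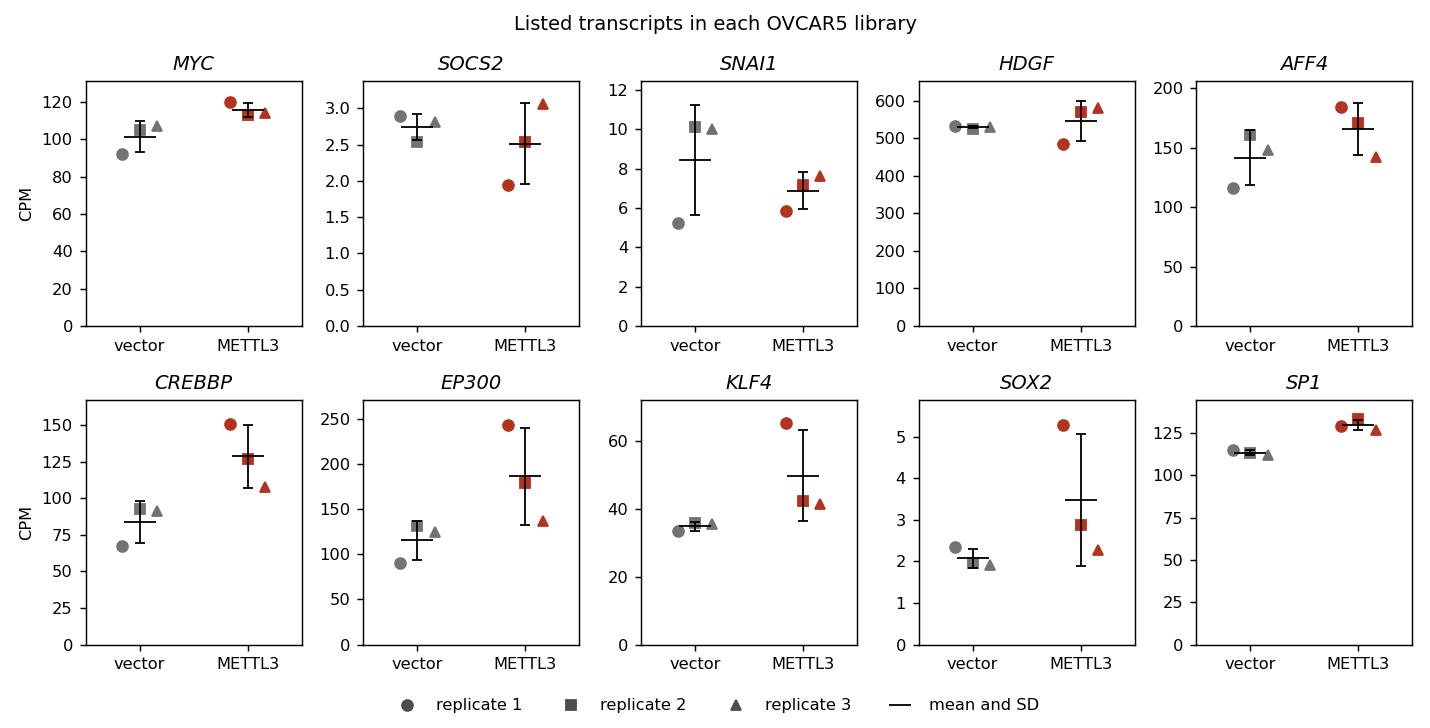
CPM of the 10 listed transcripts in each library, with vector libraries in grey and METTL3 libraries in red, marker shape for the replicate number, and the bar and whiskers for the mean and SD of 3 libraries. The groups are apart for MYC, CREBBP, EP300, KLF4 and SP1, and METTL3 replicate 1 is the highest library for 6 of the 10.

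CREBBP and EP300 are the paralogous histone acetyltransferases CBP and p300, coactivators that acetylate histone H3 at enhancers and promoters. CREBBP (ENSG00000005339.15) was at 151, 127 and 108 CPM in METTL3 replicates 1, 2 and 3, and the matching vector libraries held 67.5, 92.9 and 91.5 CPM. The groups did not overlap, with the largest gap between the replicate 1 libraries, which were the highest and the lowest of the 6. Means were 129 ± 21.8 and 84.0 ± 14.3 CPM (SD, n = 3 each), a fold of 1.53, and the log2 fold change was 0.61 (95% interval 0.22 to 1.01, SE 0.171, edgeR adjusted p = 0.439). In replicates 2 and 3 CREBBP rose by a log2 fold change of 0.35 (SE 0.0704, edgeR adjusted p = 0.00435).

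EP300 (ENSG00000100393.14) had the same ordering of libraries. It was at 244, 179 and 137 CPM with METTL3 and at 90.9, 131 and 125 CPM with the vector, so METTL3 replicate 3 lay only just above vector replicate 2. The fitted log2 fold change was the second largest of the 10 at 0.69 (0.17 to 1.20, SE 0.225, edgeR adjusted p = 0.521), with a fold of 1.61. It was 0.30 in replicates 2 and 3 and did not pass (edgeR adjusted p = 0.191). Across the 6 libraries the log2 CPM of CREBBP and EP300 gave the highest Pearson r of any pair among the 10, 0.98, which is a description of 6 points that share the replicate 1 libraries.

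Both coactivator transcripts are long, and so are those of AFF4 and SP1. The principal transcripts of CREBBP, AFF4, EP300 and SP1 measured 10790, 9536, 8779 and 7680 bases, within the longest 10% of protein-coding transcripts tested. The 1488 transcripts of that class had median log2 differences of 0.22, 0.06 and -0.01 in replicate pairs 1, 2 and 3, against -0.02, -0.02 and -0.01 for the others. With a smooth trend on GC content and length removed from the counts, the log2 fold change of CREBBP was 0.46 and that of EP300 was 0.59. The same setting gave 0.19 for AFF4 and 0.14 for SP1, where the main fit gave 0.22 and 0.19. Of 10 histone acetyltransferases, CREBBP and EP300 included, 8 were higher and 2 lower over all 6 libraries, with a median log2 fold change of 0.104. In replicates 2 and 3 the split was 9 higher and 1 lower. CREBBP was the 1 gene called there, where 6.66% of all genes were called higher. With the GC and length trend removed, the split of the family was 6 higher and 4 lower over all 6 libraries. In replicates 2 and 3 it stayed at 9 higher and 1 lower with the trend removed. There 4 of the 10 were called higher, where 2799 of 21996 genes were, with CREBBP at 0.37 and EP300 at 0.32.

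KLF4 and SP1 belong to the zinc-finger family of SP and KLF factors, which bind GC-rich promoter elements. KLF4 is a regulator of epithelial differentiation and a reprogramming factor, and its transcript has been reported to be lowered through METTL3 by decay. KLF4 (ENSG00000136826.15) was at 65.4, 42.5 and 41.6 CPM with METTL3 and at 33.4, 35.8 and 35.6 CPM with the vector. METTL3 replicate 1 stood far above the other METTL3 libraries, yet all 3 exceeded every vector library. The log2 fold change was 0.51 (0.10 to 0.93, SE 0.181, edgeR adjusted p = 0.551), a fold of 1.43, and in replicates 2 and 3 KLF4 rose by 0.23 (SE 0.058, edgeR adjusted p = 0.0129). Without METTL3 replicate 1 alone, the log2 fold change was 0.29. A transcript on the opposite strand overlaps 9.75% of the exonic bases of KLF4, and the use of strand in counting is not given in the sources used here.

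SP1 is a widely expressed activator of promoters without a TATA box, and its log2 fold change had the smallest standard error of the 10, 0.0988. SP1 (ENSG00000185591.10) was at 129, 133 and 127 CPM with METTL3 and at 115, 113 and 112 CPM with the vector. No library of either group fell near the other group, and the 3 pair differences were 0.17, 0.23 and 0.18 on the log2 scale. The log2 fold change was 0.19 (-0.03 to 0.42, edgeR adjusted p = 0.632) over all 6 libraries, and in replicates 2 and 3 SP1 rose by 0.21 (SE 0.0527, edgeR adjusted p = 0.0158).

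Of the 26 SP and KLF genes 20 could be tested, and their log2 fold changes were positive for 14 and negative for 6, with a median of 0.179. Without adjustment KLF3, KLF4, KLF5, KLF7, KLF13 and KLF15 had a p under 0.05, all higher, where 4.4% of all genes were higher at that level. In replicates 2 and 3 the family split both ways, with 5 genes called higher and 3 lower, and the median was 0.044. Over all genes 6.66% were called higher there and 8.59% lower. KLF3, a transcriptional repressor, rose by 0.35 there (edgeR adjusted p = 0.000483) and measured 117, 113 and 107 CPM with METTL3 against 66.9, 85.3 and 87.6 CPM with the vector. KLF10, a factor induced by TGF-β, fell by 0.33 (edgeR adjusted p = 0.000486), at 109 and 108 CPM against 135 and 137 CPM in replicates 2 and 3, with a replicate 1 difference of 0.03. KLF12, a repressor, fell by 0.63 in the same libraries (edgeR adjusted p = 0.000296), while its replicate 1 values of 11.1 and 11.5 CPM were nearly equal.

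SOX2, the stem cell factor whose transcript has been reported as stabilised through METTL3, was scarce in these cells. SOX2 (ENSG00000181449.4) was at 5.29, 2.89 and 2.28 CPM with METTL3 and at 2.34, 1.96 and 1.92 CPM with the vector. METTL3 replicate 1 was more than any other library, and METTL3 replicate 3 lay just below vector replicate 1, so the groups overlapped. It had the largest fitted log2 fold change of the 10, 0.75, but also the widest interval (0.04 to 1.46, SE 0.312, edgeR adjusted p = 0.59), and it was 0.34 without METTL3 replicate 1. The value was 0.41 in replicates 2 and 3 (edgeR adjusted p = 0.121). Of the SOX family, 12 of 20 genes could be tested, 8 were higher and 4 lower, and in replicates 2 and 3 SOX7 rose by 0.40 (edgeR adjusted p = 0.0184) whereas SOX8 fell by 0.63 (edgeR adjusted p = 0.0171) and SOX4 by 0.29 (edgeR adjusted p = 0.00485). SOX4 was higher in the replicate 1 pair, by 0.50, and its log2 fold change over all 6 libraries was -0.03. Of 10 pluripotency factors 5 could be tested, SOX2, KLF4 and MYC among them, and all 5 had positive values over the 6 libraries with a median of 0.408. In replicates 2 and 3 the split was 4 higher and 1 lower, SALL4 at -0.03, and the median was 0.191. SALL4 was higher in the replicate 1 pair, by 0.93.

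**Figure D2:**
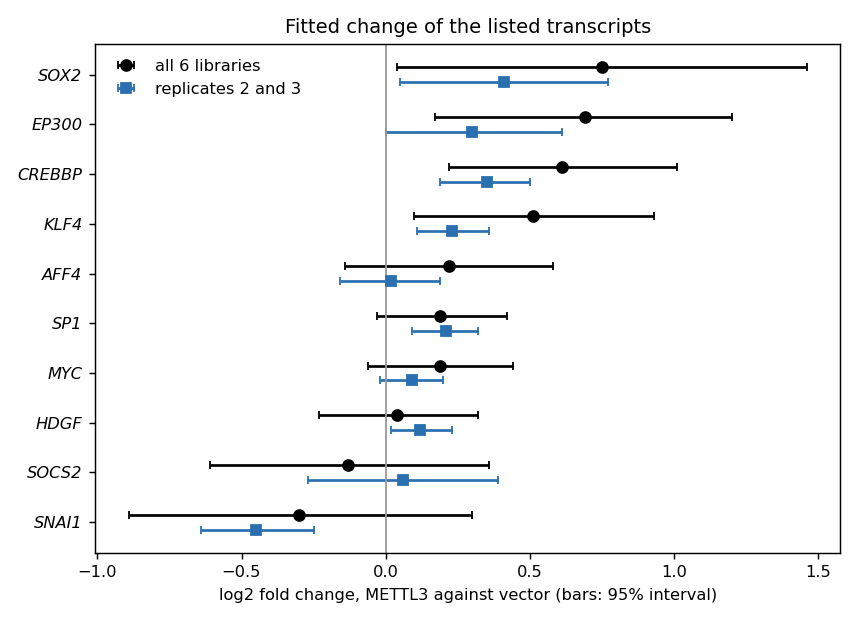
Fitted log2 fold change of METTL3 over vector for each listed transcript with its 95% interval, for all 6 libraries in black and for replicates 2 and 3 in blue. With all libraries the intervals of SOX2, EP300, CREBBP and KLF4 lie above 0, and in replicates 2 and 3 the value of SNAI1 is -0.45.

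MYC and AFF4 act on transcription by RNA polymerase II, MYC as a factor that dimerises with MAX and AFF4 as the scaffold of the super elongation complex that releases paused polymerase. MYC (ENSG00000136997.21) was at 120, 113 and 114 CPM with METTL3 and at 92.0, 105 and 107 CPM with the vector. Although the groups did not overlap, replicates 2 and 3 differed by little, with pair differences of 0.38, 0.11 and 0.08 in replicates 1, 2 and 3. The log2 fold change was 0.19 (-0.06 to 0.44, edgeR adjusted p = 0.65), a fold of 1.14, and 0.09 in replicates 2 and 3 (edgeR adjusted p = 0.281).

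Neither the partners of MYC nor the genes that it is known to activate had 1 sign throughout. Of the 11 genes tested in the MYC dimer network 7 were higher and 4 lower, and MXD1, a MYC antagonist that competes for MAX, rose by 0.30 in replicates 2 and 3 (edgeR adjusted p = 0.0442). Among 20 genes activated by MYC, 5 were higher and 15 lower over all 6 libraries with a median log2 fold change of -0.208, but 9 were higher and 11 lower in replicates 2 and 3 with a median of -0.01. There CDC25A, a cell cycle phosphatase, rose by 0.28 (edgeR adjusted p = 0.00917), TFRC, the transferrin receptor, rose by 0.18 (edgeR adjusted p = 0.022), and LDHA, lactate dehydrogenase A, rose by 0.15 (edgeR adjusted p = 0.0448). BOP1, a ribosome assembly factor, fell by 0.29 (edgeR adjusted p = 0.00244). The replicate 1 pair ran the other way for CDC25A, TFRC and LDHA, at -0.47, -0.16 and -0.41, and over all 6 libraries their log2 fold changes were 0.02, 0.06 and -0.04.

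AFF4 (ENSG00000072364.13) was at 184, 171 and 142 CPM with METTL3 and at 116, 161 and 148 CPM with the vector. The ranges overlapped, and the pair differences of 0.66, 0.09 and -0.06 placed nearly all of the difference in replicate 1. Its log2 fold change was 0.22 (-0.14 to 0.58, edgeR adjusted p = 0.685) with all libraries and 0.02 in replicates 2 and 3 (edgeR adjusted p = 0.923). Of the 14 genes of the super elongation complex, 8 were higher and 6 lower. In replicates 2 and 3, 3 of them fell, where 8.59% of all genes did. These were AFF2 (log2 fold change -1.39, edgeR adjusted p = 0.000206), a relative of AFF4 at 0.195 to 2.30 CPM, ELL2 (-0.31, edgeR adjusted p = 0.00161), an elongation factor, and MLLT3 (-0.42, edgeR adjusted p = 0.00508), a chromatin reader. The replicate 1 difference of ELL2 was 0.07 and that of AFF2 was -0.03.

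**Figure D3:**
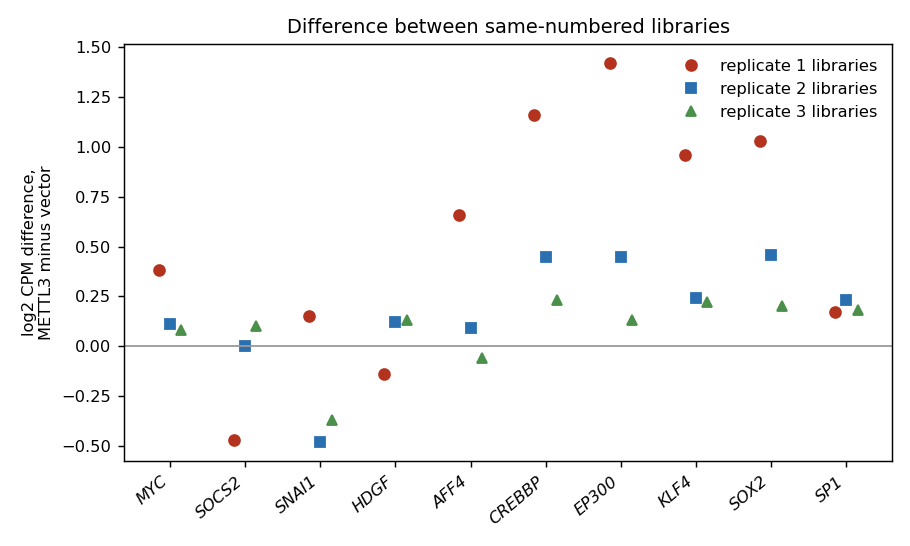
Difference in log2 CPM, METTL3 minus vector, between libraries of the same replicate number for the 10 listed transcripts, with 1 marker shape and colour per replicate number. The replicate 1 differences of CREBBP, EP300, KLF4 and SOX2, at 1.16, 1.42, 0.96 and 1.03, exceed those of replicates 2 and 3, whereas SP1 lies at 0.17 to 0.23 in all 3.

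SNAI1, the Snail repressor of epithelial genes, was the 1 member called lower in replicates 2 and 3. SNAI1 (ENSG00000124216.4) was at 5.83, 7.16 and 7.65 CPM with METTL3 and at 5.22, 10.1 and 10.0 CPM with the vector. Both replicate 1 libraries were low, with METTL3 slightly above the vector, and in the other replicates both vector libraries exceeded both METTL3 libraries. Over all 6 libraries the log2 fold change was -0.30 (-0.89 to 0.30, SE 0.26, edgeR adjusted p = 0.746), while in replicates 2 and 3 SNAI1 fell by 0.45 (SE 0.0902, edgeR adjusted p = 0.00346). The value was -0.55 without vector replicate 1, -0.13 without vector replicate 2, -0.14 without vector replicate 3 and -0.18 without METTL3 replicate 1. Replicate 1 against the rest gave SNAI1 a log2 difference of -0.64 (edgeR adjusted p = 0.0509), larger than the difference between the groups. Reports in other cancers have METTL3 acting on SNAI1 by translation, which counts of RNA do not measure.

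Genes that SNAI1 is known to repress, among them genes of adherens and tight junctions and of the apical surface, were all at higher values with METTL3. All 10 on the list had a positive log2 fold change over the 6 libraries, with a median of 0.402 against -0.018 over all genes, and all 10 were higher in each of the 3 replicate pairs. Over all 6 libraries edgeR called 0 of them, and 4 had an unadjusted p under 0.05, where 4.4% of all genes were higher at that level. DESeq2 called 2 of them, both higher, where it called 193 of 22038 genes higher. In replicates 2 and 3, 9 of the 10 rose, where 6.66% of all genes did, with a median of 0.508 against -0.003 over all genes. Without METTL3 replicate 1 the split was 9 higher and 1 lower. The list was chosen with earlier results of these data known, so these counts describe it and do not test it.

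CDH1, the adhesion protein E-cadherin, was at 439, 358 and 346 CPM with METTL3 and at 201, 184 and 189 CPM with the vector. Every METTL3 library was well above every vector library, and the log2 fold change was 0.99 with all libraries (SE 0.131, edgeR adjusted p = 0.17) and 0.91 in replicates 2 and 3 (edgeR adjusted p = 7.46e-08). ESRP1, an epithelial splicing regulator, was at 136, 122 and 121 CPM with METTL3 and at 129, 78.8 and 76.1 CPM with the vector, and it rose by 0.65 in replicates 2 and 3 (edgeR adjusted p = 1.51e-06). PKP2, a desmosome protein, rose by 0.51 there (edgeR adjusted p = 2.44e-05). MUC1, an apical mucin, stood at 27.0 CPM in vector replicate 1 against 71.9 to 148 CPM elsewhere, and it rose by 0.37 in replicates 2 and 3 (edgeR adjusted p = 0.00284). CLDN3, a tight junction claudin, was the exception at 0.04 (edgeR adjusted p = 0.795). The 6 epithelial markers of the sample check all rose in replicates 2 and 3, where 6.66% of all genes did. Of these markers CDH1 and CLDN4 also stand on this list. In the replicate 1 pair only 2 of the 6 markers were higher with METTL3, and over all 6 libraries edgeR called 0. The summed level of the markers was 7170 to 8180 CPM with METTL3 and 5820 to 9080 CPM with the vector. Their part in the result was not tested.

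Of 9 transcription factors of epithelial to mesenchymal transition 7 could be tested, of which 2 were higher and 5 lower over all 6 libraries. ZEB1, another repressor of CDH1, was at 11.5, 27.7 and 25.1 CPM with METTL3 and at 17.5, 38.2 and 35.5 CPM with the vector. It was lower with METTL3 in each pair, both replicate 1 libraries were low as for SNAI1, and in replicates 2 and 3 it fell by 0.48 (edgeR adjusted p = 0.000253). ZEB1 and SNAI1 were the 2 genes of the list called there, both lower, where 8.59% of all genes were.

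**Figure D4:**
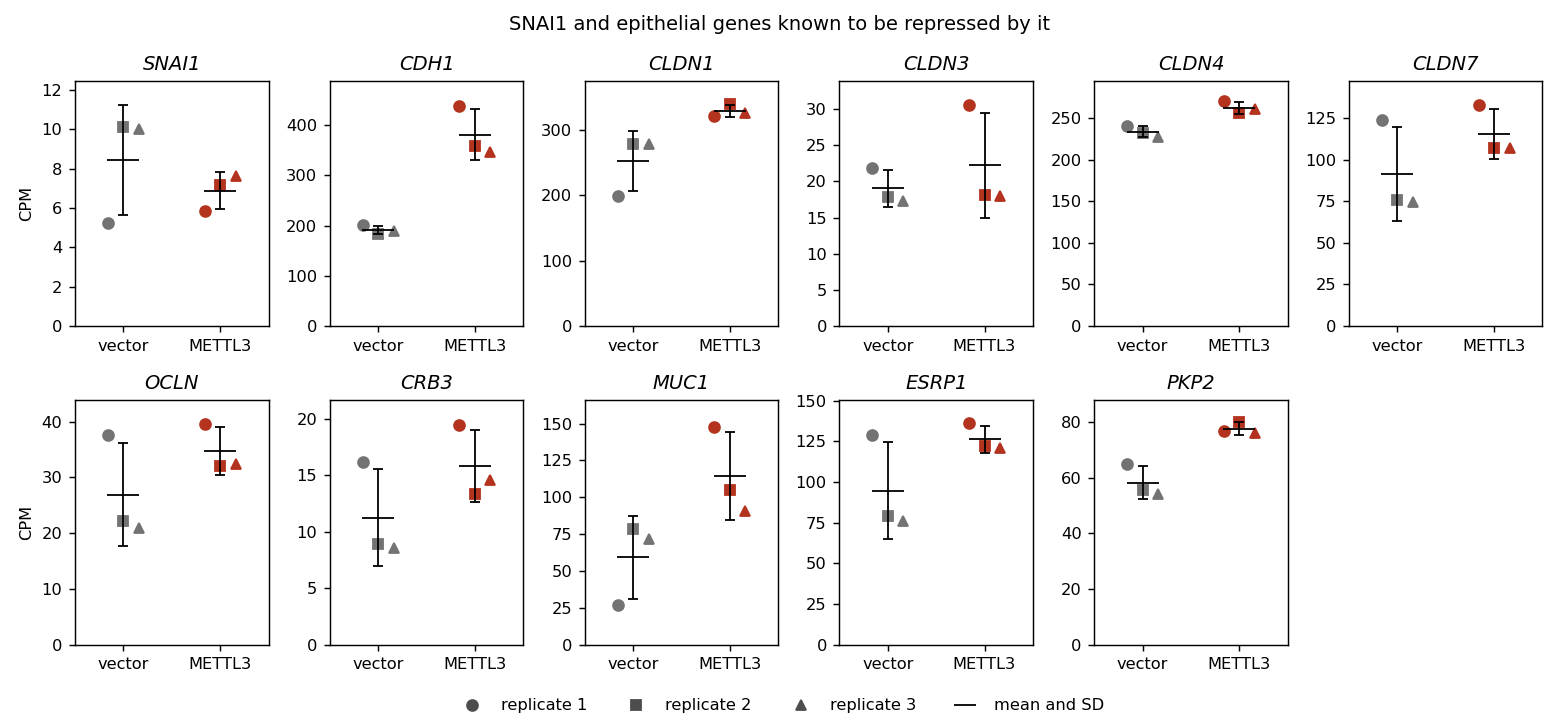
CPM of SNAI1 and of 10 epithelial genes known to be repressed by it in each library, with vector libraries in grey, METTL3 libraries in red, marker shape for the replicate number, and the bar and whiskers for the mean and SD of 3 libraries. The METTL3 libraries lie above all vector libraries for 5 of the 10 repressed genes, as for 8.47% of all genes tested. SNAI1 is low in both replicate 1 libraries.

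HDGF is a secreted and nuclear growth factor that binds chromatin through a PWWP domain, and it was by far the most abundant member per transcript length. HDGF (ENSG00000143321.19) was at 485, 571 and 581 CPM with METTL3 and at 533, 526 and 531 CPM with the vector. The vector libraries were within a narrow range, METTL3 replicate 1 lay below it and the other METTL3 libraries above it. The log2 fold change was 0.04 (-0.23 to 0.32, edgeR adjusted p = 0.933) and 0.12 in replicates 2 and 3 (edgeR adjusted p = 0.119), so values under -0.23 or over 0.32 lay outside the interval. Of the HDGF family 3 of 5 genes could be tested, and PSIP1, the chromatin tether LEDGF, fell by 0.20 in replicates 2 and 3 (edgeR adjusted p = 0.0236).

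SOCS2 is a feedback inhibitor of growth hormone and JAK-STAT signalling whose transcript has been reported to decay through METTL3. SOCS2 (ENSG00000120833.14) was at 1.95, 2.54 and 3.06 CPM with METTL3 and at 2.89, 2.54 and 2.81 CPM with the vector. The METTL3 libraries held both the lowest and the highest value, and the pair differences were -0.47, 0 and 0.10. The log2 fold change was -0.13 (-0.61 to 0.36, edgeR adjusted p = 0.871) with all libraries, 0.06 in replicates 2 and 3 (edgeR adjusted p = 0.854), and 0.05 without METTL3 replicate 1. The SOCS family was split at 4 higher and 4 lower, and SOCS3, another inhibitor of JAK kinases, fell by 0.25 in replicates 2 and 3 (edgeR adjusted p = 0.00667). Of the JAK-STAT partners 7 were higher and 8 lower over all 6 libraries, and in replicates 2 and 3 IGF1R, the type 1 receptor for insulin-like growth factors, fell by 0.31 (edgeR adjusted p = 0.0067) and STAT5B, a signal transducer that SOCS2 restrains, fell by 0.24 (edgeR adjusted p = 0.00869). Both were higher in the replicate 1 pair, IGF1R by 0.75 and STAT5B by 0.18, and over all 6 libraries their log2 fold changes were -0.01 and -0.12.

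Per kilobase of principal transcript, the mean levels over the 6 libraries were 233 CPM for HDGF, 29.2 for MYC, 17.2 for EP300, 16.1 for AFF4, 15.8 for SP1, 14.4 for KLF4, 9.85 for CREBBP, 4.5 for SNAI1, 1.11 for SOX2 and 1.1 for SOCS2. Among all genes tested, noncoding ones included, HDGF was at percentile 99 of this measure and SOX2 and SOCS2 at percentile 39.5. Those of SOX2 and SNAI1, both among the 3 lowest per length, also had the widest intervals of the 10.

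For 8 of the 10 a direction in other cancers was taken from general knowledge, without a source in the files, higher with METTL3 for MYC, SNAI1, HDGF, AFF4, SOX2 and SP1 and lower for SOCS2 and KLF4, in part at the level of protein. In these libraries 6 of the 8 had a log2 fold change of the reported sign, and SNAI1 and KLF4 had the opposite one. Agreement of sign in every replicate pair held for MYC, SOX2 and SP1 among those 6, while AFF4, HDGF and SOCS2 had pairs of both signs. KLF4 was higher with METTL3 in all 3 pairs, against its reported direction. SNAI1 was higher in replicate 1 and lower in replicates 2 and 3, and its reports concern translation, which counts of RNA do not measure. Over all genes tested, 10415 had a positive and 11623 a negative log2 fold change.

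A further list held 21 other transcripts that have been reported as METTL3 targets. Over all 6 libraries 12 were higher and 9 lower, with a median log2 fold change of 0.039, close to the -0.018 of all genes. Of the 21, 4 rose and 3 fell in replicates 2 and 3, where 6.66% of all genes rose and 8.59% fell. SLC2A1, the glucose transporter GLUT1, was at 477, 427 and 419 CPM with METTL3 and at 279, 263 and 255 CPM with the vector. Its groups were well apart, with a log2 fold change of 0.73 over all libraries (SE 0.115, edgeR adjusted p = 0.289) and a rise of 0.71 in replicates 2 and 3 (edgeR adjusted p = 5.77e-07). HK2, the hexokinase of glycolysis, rose by 0.38 there (edgeR adjusted p = 0.000192), EGFR, the epidermal growth factor receptor, rose by 0.44 (edgeR adjusted p = 0.00852) and RELA, an NF-κB subunit, rose by 0.17 (edgeR adjusted p = 0.04). WWTR1, the Hippo pathway effector TAZ, fell by 0.32 (edgeR adjusted p = 0.000792), CDCP1, a transmembrane adaptor, fell by 0.28 (edgeR adjusted p = 0.00599) and AXL, a receptor tyrosine kinase, fell by 0.22 (edgeR adjusted p = 0.0139). CDCP1 and WWTR1 were higher in the replicate 1 pair, by 0.55 and 0.09, and over all 6 libraries their log2 fold changes were -0.05 and -0.23. Both replicate 1 libraries were low in AXL, with 320 CPM for METTL3 against 364 CPM for the vector, where the others ran from 594 to 735 CPM.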

How the data were processed

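RNA of 6 OVCAR5 libraries was sequenced after poly(A) selection. The authors aligned reads to hg38 and counted them per gene. Their processing notes name fastp, HISAT2, featureCounts and Subread, with versions not given in the sources used here. The deposited values are raw counts, whole numbers without normalization. Between 67.6% and 70.5% of counts from 1 to 20 were even. Counting both mates of a pair would give this and lower the precision, but the labels describe paired-end reads of a stranded kit and the paper's methods single-end reads of another kit, so whether it happened is unknown. The 37 mitochondrial rows were at 0.

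In R 4.3.3, genes passing filterByExpr (edgeR 4.0.16, minimum count 10) were scaled by TMM and compared with glmQLFit (robust) and glmQLFTest, Benjamini-Hochberg adjusted, with a threshold of 0.05. CPM use the TMM-scaled totals. Pair differences use log2(CPM + 0.5). DESeq2 1.42.0 was an alternative. Identifiers were matched to GENCODE 44.

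The members and gene lists were chosen with earlier results of these data known. From each list, up to 4 genes with the smallest p over all 6 libraries, and up to 4 of those called in replicates 2 and 3, could be named. Some genes were left unnamed for brevity. Replicate numbers come from the labels. Pair differences and the replicate block treat libraries of 1 number as pairs, while the main fits hold no term for pairs. Deviations of same-numbered libraries correlated at 0.334, 0.12 and 0.175 in replicates 1, 2 and 3. Different numbers gave up to 0.205, which only replicate 1 exceeded. An exact permutation test of 3 against 3 cannot go below 0.1.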

Additional observations from a re-analysis of the deposited data

How the results depend on the processing

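Over 16 alternatives set with the design and 4 added after the data were seen, all on replicates 2 and 3, 9 of the 10 transcripts kept the sign of their log2 fold change. SOCS2 turned from -0.13 to 0.06 in replicates 2 and 3, to 0.05 without METTL3 replicate 1, and to 0.08 with the GC and length trend removed, 0.06 with the replicate block, 0.05 with counts divided by 2 and 0.07 with DESeq2, the last 4 in replicates 2 and 3. The cause was not tested. Without 1 library the ranges were -0.27 to 0.05 for SOCS2, -0.55 to -0.13 for SNAI1, 0.29 to 0.64 for KLF4, 0.34 to 1.00 for SOX2, 0.10 to 0.35 for AFF4, 0.12 to 0.25 for MYC, 0.01 to 0.14 for HDGF, 0.48 to 0.74 for CREBBP, 0.47 to 0.88 for EP300 and 0.20 to 0.23 for SP1. The number of listed transcripts called was 0 in the reported comparison, 2 without a filter (CREBBP at 0.63 and EP300 at 0.70) and 4 in replicates 2 and 3. In those replicates it was 7 with the GC and length trend removed, 6 with the block, which leaves 1 residual degree of freedom, 4 with counts divided by 2 and 4 with DESeq2. Leaving out any 1 library gave 0. Over all genes the calls were 0 in the reported comparison, 280 with DESeq2, 560 without a filter, 28 with the replicate block and the trend removed, 0 to 367 without 1 library (367 without vector replicate 1), and 3362 in replicates 2 and 3. There they became 4920 with the trend removed, 5450 with the block, 3480 with counts divided by 2 and 3233 with DESeq2. The trend also moved the split of calls, from 1469 higher and 1893 lower to 2799 higher and 2121 lower. The replicate block over all 6 libraries called 0 genes and 0 of the 10, with CREBBP at 0.61 (edgeR adjusted p = 0.342), and changed no call. METTL3 passed the threshold with DESeq2 (1.18), without a filter (1.18), with the block and trend removed (1.19) and in replicates 2 and 3 (1.28, or 1.30, 1.28, 1.28 and 1.29 under the added settings), and ran from 1.13 to 1.23 without 1 library, where it passed without vector replicate 1 (1.23, edgeR adjusted p = 0.00708). Counting precision is lowest for SOCS2 and SOX2, the members with the fewest counts.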

Other observations

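Of 8 writer complex genes, METTL3 included, 4 were higher and 4 lower over all 6 libraries, and edgeR called 0. METTL14, the partner that binds RNA with METTL3, was at 27.7 to 33.4 CPM with METTL3 and 31.2 to 37.5 CPM with the vector, with overlapping groups (log2 fold change -0.14). ZC3H13, a scaffold of the complex, was at 106, 120 and 118 CPM with METTL3 and at 157, 135 and 142 CPM with the vector. The groups did not overlap, and it fell by 0.22 in replicates 2 and 3 (edgeR adjusted p = 0.0121), while RBM15, an adaptor that recruits the complex to RNA, rose by 0.22 (edgeR adjusted p = 0.0352). Of the erasers, FTO and ALKBH5, neither was called.

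Among 11 readers 3 were higher and 8 lower over all 6 libraries. EIF3H, an initiation factor subunit reported to link METTL3 to ribosomes, was at 398, 478 and 481 CPM with METTL3 and at 600, 529 and 565 CPM with the vector, with no overlap, and fell by 0.19 in replicates 2 and 3 (edgeR adjusted p = 0.024). IGF2BP1 and IGF2BP2, which stabilise marked transcripts, fell there by 0.35 (edgeR adjusted p = 0.00873) and 0.24 (edgeR adjusted p = 0.00393). IGF2BP2 was at 183 and 178 CPM in the replicate 1 libraries and at 294 to 354 CPM in the others, with a replicate 1 difference of 0.04.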
